A study of Homo sapiens with 21 samples.

Results

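The 10 integrin subunit genes expressed by carcinoma cells, 5 alpha subunits (ITGA2, ITGA3, ITGA5, ITGA6 and ITGAV) and 5 beta subunits (ITGB1, ITGB4, ITGB5, ITGB6 and ITGB8), were followed through every condition of the study. They were chosen by gene symbol, matched to the gene identifiers of the 4 expression tables, and are 10 of the 20970 genes measured in at least 1 table. RNA was measured in 21 libraries to find what METTL4, a putative DNA adenine methyltransferase, and the long noncoding RNA RP11-390F4.3 change in hypoxic cancer cells. FADU is a human squamous carcinoma line of the head and neck, and BFTC909 is a human transitional carcinoma line of the renal pelvis. Each line was grown with a scrambled siRNA (Scr-si) in normoxia (18% O2), with the same siRNA in hypoxia (1% O2 for 18 h), and with an siRNA against METTL4 (METTL4-si) in hypoxia, with 2 libraries in each group. FADU cells in normoxia carried a control vector, METTL4 (METTL4-OE) or RP11-390F4.3 (RP11-390F4.3-OE), again with 2 libraries in each group. The paper describes stable clones made by transfection, and the labels do not say how many clones each group held. Clone and construct therefore cannot be told apart. The last set held hypoxic FADU cells: 1 library of a CRISPR control and 1 library from each of 2 clones whose METTL4 was changed by prime editing in the DPPW motif of its catalytic site, so that each mutant stands for a single clone. Replicates are libraries of 1 line, and nothing in the labels says that they came from separate cultures, so the p-values measure the spread between these libraries, which may be technical.

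Integrins are receptors built from 1 alpha and 1 beta chain that hold a cell to the extracellular matrix and carry signals across the membrane. In epithelial tissue, the pair of ITGA6 and ITGB4 binds laminin and anchors hemidesmosomes to keratin filaments, the pairs of ITGB1 with ITGA2, ITGA3 and ITGA5 bind collagen, laminin and fibronectin in turn, and ITGAV joins ITGB5, ITGB6 or ITGB8 to bind vitronectin or the latent form of TGF-beta. Only ITGB1 among these beta chains pairs with many alpha chains, so the RNA of a beta gene is set here beside that of its known partners. RNA levels give no measure of how much of each pair stood at the cell surface.

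In the GRCh37 build the alpha genes lie at chr5:52285170-52390609 (ITGA2, plus strand), chr17:48133332-48167845 (ITGA3, plus strand), chr12:54789045-54813050 (ITGA5, minus strand), chr2:173292082-173371187 (ITGA6, plus strand) and chr2:187454737-187545628 (ITGAV, plus strand). The beta genes lie at chr10:33176201-33294720 (ITGB1, minus strand), chr17:73717408-73753899 (ITGB4, plus strand), chr3:124480795-124620265 (ITGB5, minus strand), chr2:160956178-161056824 (ITGB6, minus strand) and chr7:20370325-20455377 (ITGB8, plus strand). Each value counts reads over the exons of the whole gene, so isoforms are summed. Genes overlapping the members on the other strand had low values. The highest were those of GALK1, beside ITGB4, at up to 12.7 in BFTC909, where ITGB4 was not analysed, and 8.53 in FADU. Of genes overlapping on the same strand only ENO1P3, within ITGB5, had values, at up to 1.72 in BFTC909.

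Hypoxia acts on transcription through hypoxia-inducible factors, which bind a short core element, so the 250 bases before the transcription start are shown for the members that passed the test in a hypoxia comparison and have a single start in RefSeq (build GRCh38.p14). The sequences are written 5′ to 3′ on the strand of the gene. Capitals mark each match to ACGTG or GCGTG, read on either strand, so that CACGT or CACGC is also a match. They run over chr5:52989102-52989351 for ITGA2 (plus strand), chr12:54419267-54419516 for ITGA5 (minus strand) and chr7:20330650-20330899 for ITGB8 (plus strand).
ITGA2: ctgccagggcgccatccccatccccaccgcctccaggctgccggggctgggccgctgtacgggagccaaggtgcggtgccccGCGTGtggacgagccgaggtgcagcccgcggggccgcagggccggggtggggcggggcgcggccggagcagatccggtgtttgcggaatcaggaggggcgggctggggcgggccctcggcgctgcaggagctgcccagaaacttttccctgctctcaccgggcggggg
ITGA5: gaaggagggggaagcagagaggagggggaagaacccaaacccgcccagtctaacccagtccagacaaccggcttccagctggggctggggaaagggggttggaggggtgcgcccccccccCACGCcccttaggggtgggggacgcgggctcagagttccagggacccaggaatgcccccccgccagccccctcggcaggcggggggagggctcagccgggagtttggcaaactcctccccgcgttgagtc
ITGB8: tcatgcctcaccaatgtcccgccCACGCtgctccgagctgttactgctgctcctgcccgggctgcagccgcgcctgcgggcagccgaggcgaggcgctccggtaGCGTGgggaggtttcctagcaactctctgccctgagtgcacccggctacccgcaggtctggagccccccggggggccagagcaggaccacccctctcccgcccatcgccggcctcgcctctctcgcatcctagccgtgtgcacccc
The windows of ITGA2 and ITGA5 held 1 match each and that of ITGB8 held 2. Windows were found for 8 members, all but ITGA3 and ITGB4, and 5 of these 8 had a match in at least 1 window. Over all RefSeq promoters, 43.2% of 35116 windows and 47.4% of 27305 genes had one, so a match is a common feature of promoters and not a mark of these members. A match describes the letters in this window and says nothing on whether a factor was bound.

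All values are TMM-normalized CPM, reads scaled to a common library size, and are called the value below. TMM is a scaling that sets libraries of 1 table on a common level, and the 4 tables were scaled separately. Libraries held 17780000 to 25410000 reads on genes. METTL4, the targeted gene, had values of 26.6 and 25.3 in hypoxic FADU with Scr-si and of 24.2 and 27.1 in the libraries labelled METTL4-si, so its RNA was not lower there (log2 fold change -0.02, limma adjusted p = 0.90). In BFTC909 the values were 19.0 and 15.6 against 14.4 and 12.2 (log2 fold change -0.36, limma adjusted p = 0.072). METTL4 rose from 35.4 and 32.7 to 158 and 139 with METTL4-OE, and RP11-390F4.3 rose from 12.9 and 13.4 to 23.9 and 25.1 with RP11-390F4.3-OE, and to 21.8 and 21.7 with METTL4-OE. The level of METTL4 RNA does not check the DPPW clones, whose change lies in the protein sequence. CA9, a carbonic anhydrase known as a hypoxia marker, had values of 2.33 and 2.55 in normoxic FADU, 30.96 and 37.8 in hypoxia and 1.87 and 2.22 in hypoxia in the libraries labelled METTL4-si. SLC2A1, a glucose transporter known to respond to hypoxia, had 371 and 352, 1281 and 1409, and 353 and 364 in the same groups. In the matching BFTC909 groups CA9 had 0.358 and 1.17, 54.0 and 56.2, and 5.53 and 5.84. SLC2A1 there had 88.3 and 96.3, 485 and 505, and 172 and 183. In normoxic FADU CA9 had 0.906 and 0.744 with the control vector, 9.39 and 9.15 with METTL4-OE and 13.6 and 13.2 with RP11-390F4.3-OE. SLC2A1 had 300 and 283, 601 and 567, and 703 and 704 in these 3 groups.

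The markers of the lines were read beside the members. All 8 squamous markers had values in FADU, summing to 2044 to 3729 in the knockdown table. BFTC909 had values for 2 of 8 squamous and 2 of 8 urothelial markers (GATA3 and PPARG), and no values were given there for the uroplakin genes. Of 5 epithelial markers 3 had values there, summing to 84.4 and 82.5 in normoxia and to 21.2 and 21.4 in hypoxia with Scr-si. Among these the keratin gene KRT8 was at 2.60 to 7.55 in 5 of the 6 libraries. Of 6 fibroblast markers 5 had values in BFTC909, summing to 1020 and 1114 in normoxia and to 4447 and 4652 in hypoxia with Scr-si. Among them the collagen gene COL1A2 was at 805 to 3755. In FADU 2 fibroblast markers had values, summing to 25.6 and 4.74 in normoxia and to 4.40 and 5.06 in hypoxia with Scr-si. 4 libraries stood apart by markers, which were those of luminal breast cells in FADU, and GATA3 and KRT8 in BFTC909. In FADU normoxia Scr-si replicate 1 the 8 luminal markers summed to 146, against 11.8 in replicate 2. In the FADU library labelled METTL4-si replicate 1 they summed to 731, against 12.2 in replicate 2, and TFF1 was at 26.2 and 135 in these 2 libraries and at 0, which allows up to 0.137, in the other FADU knockdown libraries. In the BFTC909 library labelled METTL4-si replicate 2, GATA3 was at 128 and KRT8 at 715, against 0.844 and 5.02 in replicate 1. GATA3 is also on the urothelial list, and KRT8 is on the epithelial list only. The luminal markers with values summed to 533 in that library, against 314 in replicate 1 and 999 and 1020 in hypoxia with Scr-si. By that sum it did not stand apart, but only 1 of the 3 luminal markers with values reached 5 in each BFTC909 Scr-si library. In METTL4-si replicate 2 all 3 reached 5, and in replicate 1 it was 2 of them. By other lists replicate 2 did stand apart. Its epithelial markers summed to 1120.89, against 30.95 in replicate 1, and its urothelial markers to 148.3, against 23.07. In RP11-390F4.3-OE replicate 2 the luminal markers summed to 67.1, and to 9.29 to 18.4 in the 5 other libraries of that table. The part of these RNAs in the results was not tested. Members' results and list counts that changed when all 4 were left out together are given both ways, as an alternative chosen after seeing the data. That alternative leaves 1 library in each group concerned, so the spread comes from the groups that keep 2 libraries. Its counts of calls are therefore not comparable with those from all libraries. Within bulk RNA, fewer cells of a type and less RNA in each cell cannot be told apart.

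FADU and BFTC909 carried different sets of integrin RNA. Levels of different genes were compared after dividing each value by the length of its merged exons in kilobases. In normoxic FADU the highest levels per kilobase were those of ITGB4 at 70.3 ± 6.2, ITGA3 at 59.3 ± 1.8 and ITGA6 at 58.9 ± 4.1 (SD, n = 2), and ITGA3 and ITGA6 did not differ beyond their spread. ITGB1 followed at 36.3 ± 1.2 and ITGA2 at 11.0 ± 0.3, and the other 5 members lay between 3.64 and 5.17.

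In normoxic BFTC909 the order began with ITGB1 at 58.9 ± 0.4 and ITGA3 at 52.3 ± 0.1, then ITGA6 at 20.0003 ± 0.4, ITGAV at 15.3 ± 0.01, ITGB5 at 12.6 ± 0.9 and ITGA5 at 12.3 ± 0.1, where ITGB5 and ITGA5 did not differ beyond their spread. ITGB6 and ITGB8 were at 0.570 and 0.152. ITGA2, the collagen-binding alpha chain, had values of 0.134 and 0 in normoxia, 0.434 and 0.382 in hypoxia, and 0.657 and 6.65 in the libraries labelled METTL4-si, and a count of 0 allows a value of up to 0.126 in that library. The value of 6.65 came from the BFTC909 library with high GATA3 and KRT8, and the part of those RNAs in that value was not tested. ITGA2 fell below the minimum for a test in BFTC909, and ITGB4 was not analysed there.

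Within a library the alpha chains can be set against each other free of the scaling between tables. ITGA3 made up 42.7% ± 2.2 of the summed alpha level of normoxic FADU and 52.4% ± 0.3 of that of BFTC909, and ITGA6 made up 42.4% ± 2.1 and 20.01% ± 0.3. ITGA5 and ITGAV together took the rest in BFTC909, with 12.3% and 15.4%, where in FADU they had 3.19% and 3.73%. Of the summed level of the beta members, ITGB1 made up 81.5% ± 1.1 and ITGB5 17.5% ± 1.1 in BFTC909, where ITGB4 was not analysed, and in FADU ITGB4 made up 58.9% ± 2.8 and ITGB1 30.5% ± 2.3. Other beta chains, among them ITGB3, which also pairs with ITGAV and was measured in BFTC909, are outside these sums. ITGB5 held 94.6% of the summed level of ITGB5, ITGB6 and ITGB8 in BFTC909, and in FADU the 3 genes had 28.7%, 37.5% and 33.8%. The order of the levels rests on the length used in both lines. With the longest protein-coding transcript in place of merged exons, the highest levels in normoxic FADU were those of ITGA3 at 119 and ITGB1 at 110, ahead of ITGB4 at 80.6, and the beta shares there were 52.6% for ITGB1 and 38.6% for ITGB4, so that the leading beta member turned. In BFTC909 that length put ITGAV at 42.1 ahead of ITGA6 at 22.97, ITGA5 at 21.3 and ITGB5 at 18.5, with ITGA6 at 12.003% of the alpha level and ITGB5 at 9.37% of the beta level.

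**Figure D1:**
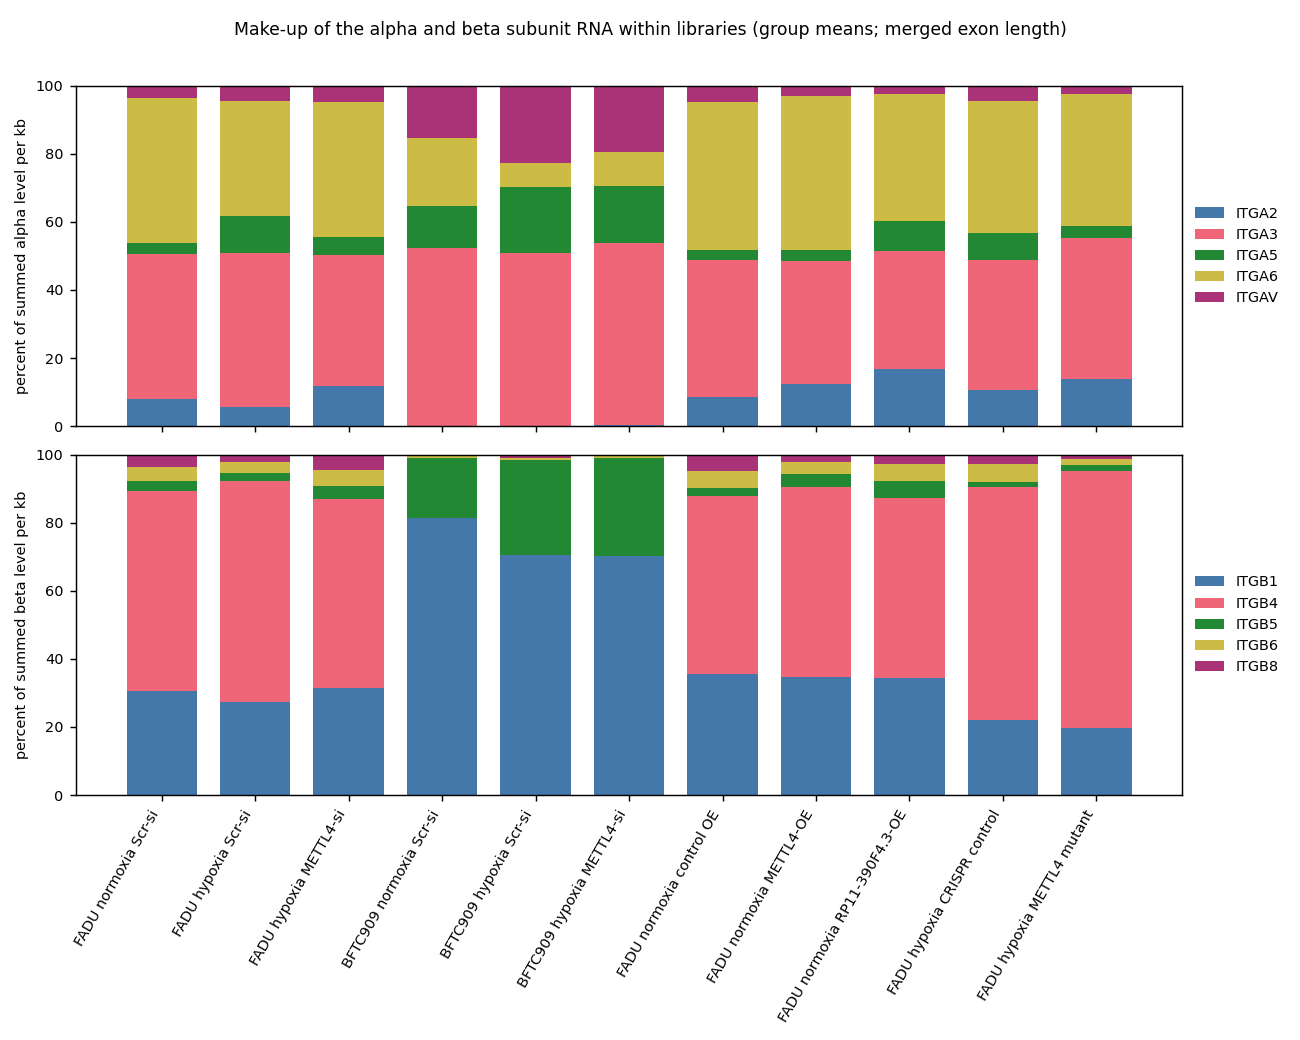
Share of each subunit in the summed level per kilobase of the 5 alpha (upper panel) and 5 beta (lower panel) members, in percent, as the mean of each group of 1 or 2 libraries. With merged exons as length, ITGA6 and ITGB4 take large shares in every FADU group, and the largest shares in BFTC909, where ITGB4 was not analysed, are those of ITGA3 and ITGB1.

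In FADU hypoxia the fibronectin receptor chain ITGA5 had the largest change among the members. ITGA5 had values of 32.6 and 32.7 in normoxia and of 106 and 124 in hypoxia. Both hypoxic libraries lay above both normoxic ones, with a log2 fold change of 1.78 ± 0.10 (SE, limma adjusted p = 0.000165). ITGB4, the hemidesmosome beta chain, had 505 and 446 in normoxia and 670 and 671 in hypoxia, a log2 fold change of 0.50 ± 0.09 (limma adjusted p = 0.011). ITGA2 had 85.4 and 88.8 in normoxia and 62.0 and 61.6 in hypoxia and fell by 0.49 ± 0.10 on the log2 scale (limma adjusted p = 0.014). A call meant a change of 1.3-fold or more with an adjusted p under 0.05. By that rule 3 of 10 members were called in FADU hypoxia, beside 19.4% of the 16324 genes tested.

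The other 7 members were not called in hypoxic FADU. ITGAV had 96.6 and 103 in normoxia and 117 and 131 in hypoxia, a log2 fold change of 0.31 that passed the p threshold (limma adjusted p = 0.032) but was under 1.3-fold. ITGA6, the partner of ITGB4, had 374 and 413 in normoxia and 317 and 312 in hypoxia (log2 fold change -0.32, limma adjusted p = 0.11). The estimates of the 2 hemidesmosome receptor chains thus had opposite signs, but ITGA6 was not called and their difference was not tested. ITGB8 was at 62.5 and 67.1, then 50.8 and 54.8 (log2 fold change -0.29). ITGB1, ITGA3, ITGB6 and ITGB5 had log2 fold changes of 0.20, 0.10, -0.05 and -0.01. ITGA6 had a log2 fold change of -0.39, past 1.3-fold, when all 4 marker-bearing libraries were left out together, and also without the normoxia one alone. Either way 1 normoxia library was left. The calls of ITGA2 and ITGB4 had little margin: without any 1 of the 4 libraries compared the limma adjusted p of ITGA2 was 0.0818 to 0.116, and that of ITGB4 was 0.0948 and 0.105 without hypoxia replicate 1 or 2 and 0.0862 without normoxia replicate 2.

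**Figure D2:**
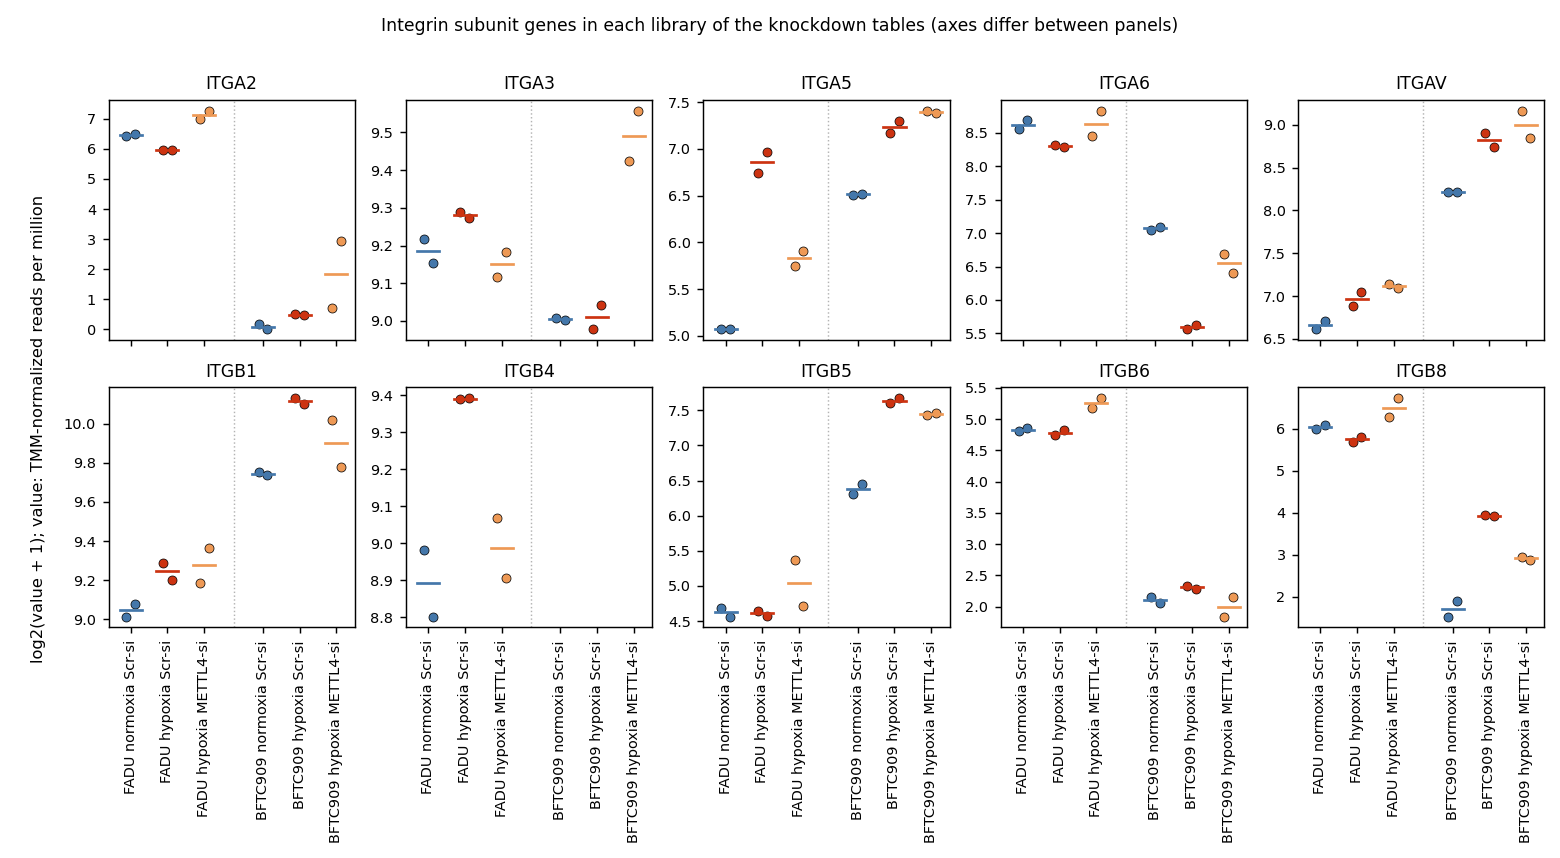
Log2(value + 1) of each member in each library of the knockdown tables (points) with the group mean (lines), the vertical axes differing between panels. ITGA5 rises in hypoxia in both lines, ITGA6 drops clearly in BFTC909, and ITGB4 has no values for BFTC909.

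In hypoxic FADU, the libraries labelled METTL4-si differed from Scr-si in 5 of 10 members, beside 27.8% of all genes tested. METTL4 RNA itself was not lower in these libraries, so the label is used as given. ITGA5 had 52.9 and 59.0, against 106 and 124 with Scr-si, and fell by 1.03 ± 0.10 on the log2 scale (limma adjusted p = 0.000717). Its values stayed above the 32.6 and 32.7 of normoxia. ITGB4 had 536 and 479, against 670 and 671, and fell by 0.40 ± 0.09 (limma adjusted p = 0.015).

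3 members were higher in the libraries labelled METTL4-si. ITGA2 had 125 and 152, against 62.0 and 61.6, a log2 fold change of 1.14 ± 0.10 (limma adjusted p = 0.000513), which put it above its normoxic values too. ITGB8, which with ITGAV binds latent TGF-beta, had 76.4 and 105, against 50.8 and 54.8 (log2 fold change 0.75 ± 0.14, limma adjusted p = 0.0086). ITGB6, the beta chain of another receptor for latent TGF-beta, had 35.3 and 39.3, against 25.8 and 27.3 (log2 fold change 0.47 ± 0.09, limma adjusted p = 0.0071). The 3 members called in hypoxia, ITGA5, ITGB4 and ITGA2, thus each had the opposite sign here, but both comparisons use the same hypoxic Scr-si libraries, so the signs are not independent.

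The rest were not called. ITGB5, the vitronectin receptor chain, had 40.5 and 25.3 with METTL4-si against 24.0 and 22.9 with Scr-si (log2 fold change 0.43 ± 0.20, limma adjusted p = 0.14), and its high library was the one whose luminal markers summed to 731. ITGA6 had 348 and 451 against 317 and 312 (log2 fold change 0.33, under 1.3-fold). Without that library ITGA6 was past 1.3-fold at 0.52, with 1 METTL4-si library left. ITGAV, ITGB1 and ITGA3 had log2 fold changes of 0.16, 0.03 and -0.13. ITGB4, ITGB6 and ITGB8 lost their calls without either hypoxia Scr-si library, with adjusted p-values from limma of 0.106, 0.0732 and 0.0737 without replicate 1 and of 0.108, 0.0530 and 0.0562 without replicate 2. Without METTL4-si replicate 2, ITGB4 was under 1.3-fold at -0.32 and ITGB5 was past it at 0.76. The only METTL4-si library left was then the one whose luminal markers summed to 731.

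In BFTC909 hypoxia 5 of the 8 tested members were called, beside 36.2% of the 14869 genes tested. ITGA6 had 132 and 135 in normoxia and 46.2 and 48.6 in hypoxia and fell by 1.48 ± 0.10 on the log2 scale (limma adjusted p = 5.8e-05). This was the largest fall of any member among the 6 siRNA and overexpression comparisons. ITGB8 had 1.88 and 2.73 in normoxia and 14.4 and 14.1 in hypoxia (log2 fold change 2.22 ± 0.15, limma adjusted p = 5.5e-05), a rise from a low level. ITGB5 had 78.1 and 86.4, then 193 and 203 (log2 fold change 1.26 ± 0.07, limma adjusted p = 3.3e-05).

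The alpha partner of both, ITGAV, had 297 and 296 in normoxia and 480 and 429 in hypoxia (log2 fold change 0.61 ± 0.11, limma adjusted p = 0.0035). ITGA5 had 90.2 and 90.8, then 143 and 156 (log2 fold change 0.72 ± 0.07, limma adjusted p = 0.000233). In none of the 5 called members did the groups overlap. A call from 2 libraries in each group leaves little room for overlap, so this adds nothing to the calls. ITGB1 had 861 and 853, then 1119 and 1096, which passed the p threshold (limma adjusted p = 0.012) but not 1.3-fold (log2 fold change 0.37). ITGA3, at 514 and 512, then 503 and 527, had a log2 fold change of 0.00, and ITGB6 one of 0.21. The 5 calls held under every alternative that was run.

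With METTL4-si, 3 of 8 tested members were called in hypoxic BFTC909, beside 24.9% of all genes tested. ITGA6 had 102 and 83.6, against 46.2 and 48.6 with Scr-si, a log2 fold change of 0.95 ± 0.10 (limma adjusted p = 0.000579), and stayed under its normoxic values of 132 and 135. ITGB8 had 6.71 and 6.34, against 14.4 and 14.1, and fell by 1.02 ± 0.15 on the log2 scale (limma adjusted p = 0.0024). ITGA3, the laminin-binding chain that hypoxia left near its normoxic level, had 686 and 752, against 503 and 527 (log2 fold change 0.48 ± 0.07, limma adjusted p = 0.0025).

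The other members were not called. ITGA5 had 168 and 167, against 143 and 156 (log2 fold change 0.16), ITGB5 had 172 and 175, against 193 and 203 (-0.19), and ITGAV had 571 and 459, against 480 and 429 (0.17). ITGB1 and ITGB6 had log2 fold changes of -0.21 and -0.32. Without METTL4-si replicate 2, the library with high GATA3 and KRT8, ITGB6 had a log2 fold change of -0.47. The 3 members called above kept their direction without it.

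**Figure D3:**
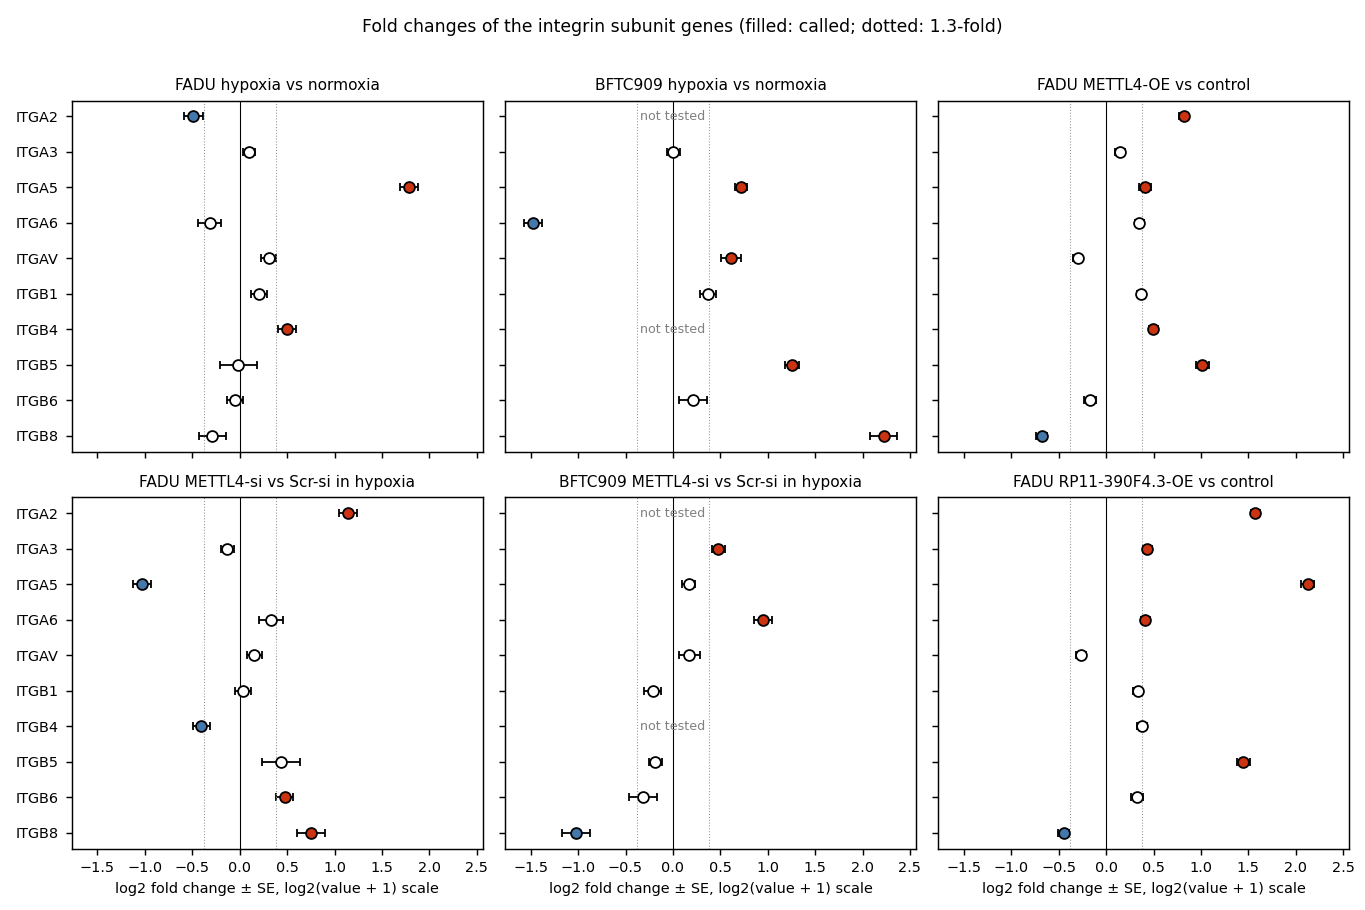
Log2 fold change of each member with its standard error in the 6 tested comparisons, on the log2(value + 1) scale, with filled points for called members (red higher, blue lower) and dotted lines at 1.3-fold. ITGA5 is higher in hypoxia in both lines and with RP11-390F4.3-OE, and the estimates for ITGB8 have opposite signs in the 2 lines both in hypoxia and with METTL4-si.

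The responses of the 2 lines were compared in 1 fit as the difference of their log2 fold changes, BFTC909 minus FADU, in which the separate scaling of the tables cancels. For hypoxia, 4 of 8 tested members differed, beside 23.8% of the 13595 genes tested in both lines. ITGA5 rose in both lines, and less in BFTC909, with a difference of -1.07 ± 0.12 (limma adjusted p = 0.000292). ITGA6 fell further in BFTC909 (-1.16 ± 0.17, limma adjusted p = 0.0013). ITGB8 and ITGB5 were higher in hypoxia in BFTC909 and not called in FADU, with differences of 2.51 ± 0.22 (limma adjusted p = 6.9e-05) and 1.27 ± 0.23 (limma adjusted p = 0.0037).

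For METTL4-si, 5 of 8 tested members differed between the lines, beside 23.5% of genes. ITGB8 was higher with METTL4-si in FADU and lower in BFTC909, a difference of -1.77 ± 0.22 (limma adjusted p = 0.000529). ITGA5 was lower in FADU and not called in BFTC909 (1.19 ± 0.12, limma adjusted p = 0.000167). ITGB6 was higher in FADU and not called in BFTC909 (-0.79 ± 0.17, limma adjusted p = 0.0074). ITGA3 had log2 fold changes of 0.48 in BFTC909 and -0.13, not called, in FADU, a difference of 0.61 ± 0.09 (limma adjusted p = 0.0012). ITGA6 had 0.95 in BFTC909 and 0.33, not called, in FADU, a difference of 0.62 ± 0.17 (limma adjusted p = 0.027). The ITGA6 difference was lost when 1 library was left out: its adjusted p was 0.0799 and 0.0773 without FADU hypoxia Scr-si replicate 1 or 2, 0.0877 and 0.0638 without the BFTC909 ones, and 0.0594 without BFTC909 METTL4-si replicate 1. ITGB5 was not called (-0.62, limma adjusted p = 0.078). Its difference was -0.95 without FADU METTL4-si replicate 2, which left only the FADU METTL4-si library with luminal breast markers.

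In normoxic FADU, 5 of 10 members were called with METTL4-OE against the control vector, beside 18.5% of the 15644 genes tested. ITGB5 had 15.6 and 15.8 with the control vector and 33.1 and 32.5 with METTL4-OE (log2 fold change 1.02 ± 0.07, limma adjusted p = 4.8e-08). ITGA2 had 79.8 and 79.6, then 145 and 137 (log2 fold change 0.82 ± 0.05, limma adjusted p = 1e-08). ITGB8 had 73.7 and 68.6, then 43.2 and 44.7, and fell by 0.68 ± 0.06 on the log2 scale (limma adjusted p = 4.7e-07). ITGB5 and ITGB8, both partners of ITGAV, thus moved in opposite directions.

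ITGB4 had 367 and 347 with the control vector and 525 and 485 with METTL4-OE (log2 fold change 0.50). ITGA5 had 26.3 and 26.3, then 35.6 and 35.1, a log2 fold change of 0.41, and it was under 1.3-fold at 0.37 with a pseudocount of 5. ITGA3, ITGA6, ITGAV and ITGB1 passed the p threshold below 1.3-fold, with log2 fold changes of 0.14, 0.35, -0.30 and 0.37, and ITGB6 had one of -0.17. Without control replicate 1, ITGA6 (0.41) and ITGB1 (0.39) reached 1.3-fold, as did ITGB1 (0.39) without METTL4-OE replicate 2.

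RP11-390F4.3-OE was compared with the same control libraries, and 6 of 10 members were called, beside 29.0% of genes. ITGA5 had 26.3 and 26.3 with the control vector and 111 and 126 with RP11-390F4.3-OE (log2 fold change 2.12 ± 0.06, limma adjusted p = 1.4e-11). ITGA2 had 238 and 239, against 79.8 and 79.6 (log2 fold change 1.57 ± 0.05, limma adjusted p = 9.8e-12). ITGB5 had 42.8 and 46.3, against 15.6 and 15.8 (log2 fold change 1.45 ± 0.07, limma adjusted p = 1.1e-09).

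The laminin-binding chains moved less. ITGA3 had 595 and 642, against 466 and 449 (log2 fold change 0.43), and ITGA6 had 457 and 441, against 353 and 323 (log2 fold change 0.41). ITGB8 had 52.5 and 51.2, against 73.7 and 68.6, and fell by 0.45 ± 0.06 (limma adjusted p = 1.7e-05). ITGB4, ITGB1, ITGB6 and ITGAV passed the p threshold below 1.3-fold, at 0.38, 0.33, 0.33 and -0.27. ITGA3 fell under 1.3-fold at 0.38 without replicate 2, the library with luminal breast markers, and ITGA6 at 0.35 without control replicate 2, while ITGB4 reached 1.3-fold at 0.39 without RP11-390F4.3-OE replicate 1 and 0.42 without control replicate 1.

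ITGA2 was higher both in the libraries labelled METTL4-si and with METTL4-OE, where its log2 fold changes were 1.14 in hypoxia and 0.82 in normoxia. ITGB8 was higher in the first (0.75) and lower in the second (-0.68). These comparisons come from separate tables at different oxygen levels, and no test of their difference was run.

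The DPPW mutant clones allowed no test, since the control and each clone were single libraries, so each clone is set against the control by its fold alone. 4 of 10 members were past 1.3-fold in the same direction in both clones, all lower, beside 20.7% of the 15719 genes of that table. ITGA5 was at 53.6 with the CRISPR control, at 21.2 in clone 1 and at 18.6 in clone 2 (log2 differences -1.297 and -1.48). ITGAV had 77.5, then 36.7 and 30.8 (-1.06 and -1.305). ITGB6, a partner of ITGAV, had 34.1, then 15.8 and 12.3 (-1.06 and -1.40).

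ITGB8, another partner of ITGAV, had 43.5, then 28.5 and 16.4 (-0.59 and -1.36). ITGB5 went the other way, with 10.8, then 16.03 and 14.1 (0.53 and 0.36), and was past 1.3-fold in both clones only with a pseudocount of 0.1 or after centring of the libraries. ITGB4 had 506, then 717 and 596 (0.50 and 0.24), and its partner ITGA6 239, then 216 and 162 (-0.15 and -0.56). ITGB1 stayed at 351, 370 and 358, ITGA2 at 76.3, 87.5 and 73.2, and ITGA3 at 347, 314 and 272. Both clones share the single control library, so its error enters every one of these differences.

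**Figure D4:**
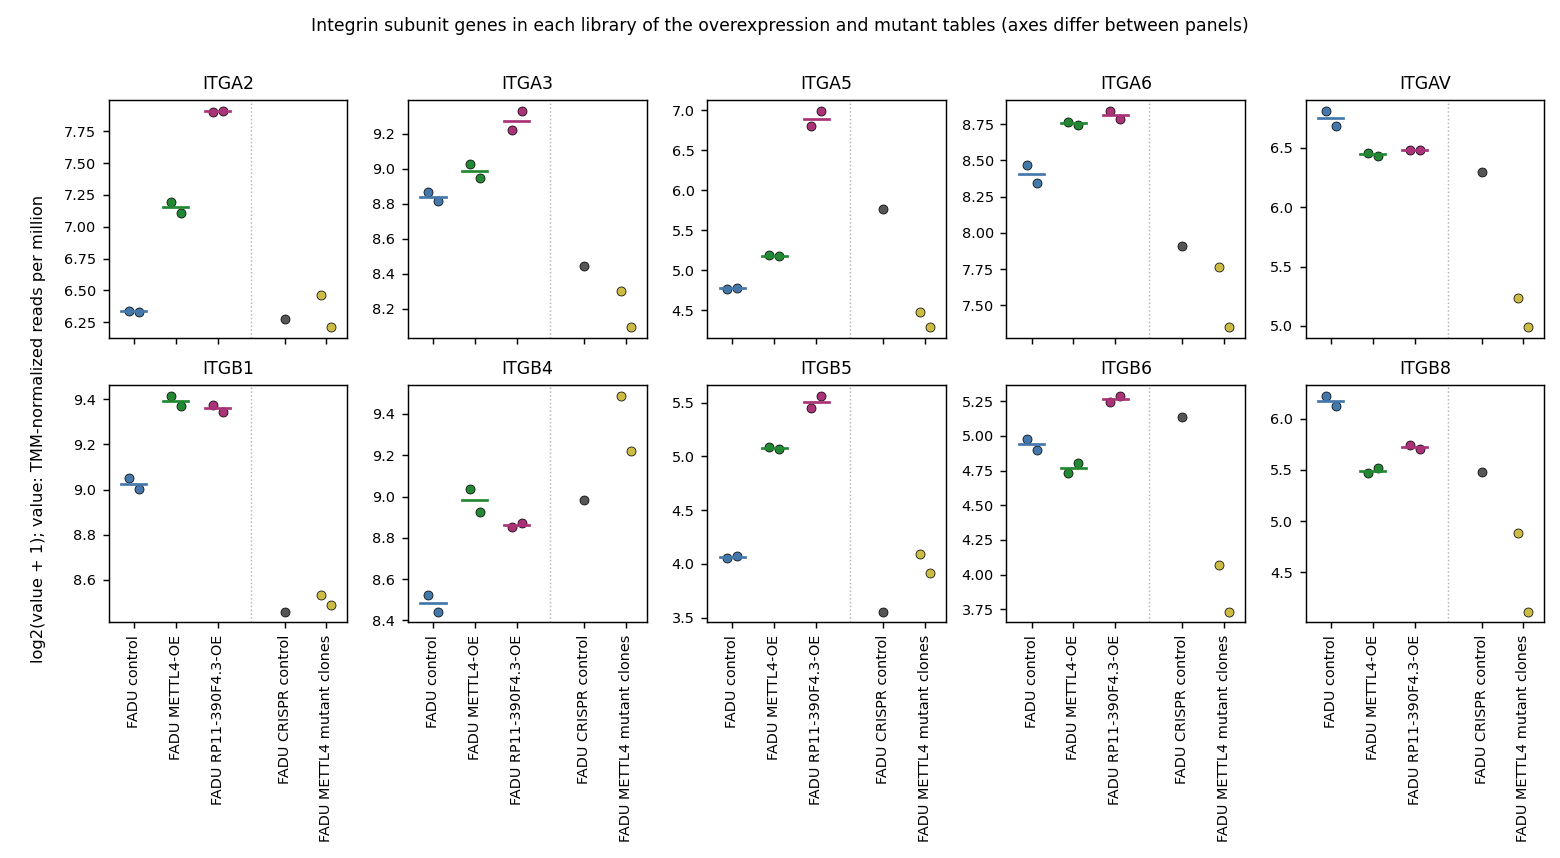
Log2(value + 1) of each member in each library of the overexpression and mutant tables (points) with the mean of groups of 2 replicates (lines), the vertical axes differing between panels. ITGA5, ITGA2 and ITGB5 are highest with RP11-390F4.3-OE within the overexpression table, and ITGA5, ITGAV, ITGB6 and ITGB8 are lower in both mutant clones than in the CRISPR control.

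The share of the alpha chains was lower in hypoxia than in normoxia in both lines. The 5 alpha members made up 53.8% ± 1.6 of the summed level per kilobase of all members in normoxic FADU and 47.9% ± 0.4 in hypoxia, and 58.1% ± 0.1 and 48.9% ± 0.3 in BFTC909, where the beta sum lacks ITGB4. With METTL4-si the shares were 52.5% ± 3.0 in FADU and 59.5% ± 1.7 in BFTC909. In the mutant table the share was 45.7% in the control and 36.1% over the 2 clones. These shares are given as a description, with no test.

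The ratio of ITGB4 to its partner ITGA6 in FADU was 1.20 ± 0.19 in normoxia, 2.10 ± 0.03 in hypoxia and 1.28 ± 0.33 in the hypoxic libraries labelled METTL4-si. It was 1.04, 1.16 and 1.02 in the control, METTL4-OE and RP11-390F4.3-OE groups, 2.09 in the hypoxic CRISPR control and 3.46 over the mutant clones, so every hypoxic FADU group but the one labelled METTL4-si was above 2. ITGA5 made up 3.19% of the alpha level in normoxic FADU, 11.1% in hypoxia and 5.06% with METTL4-si, and 12.3%, 19.6% and 16.6% in BFTC909. Among the partners of ITGAV in FADU, ITGB5 went from 19.7% of their summed level in the control to 40.3% with METTL4-OE and 40.8% with RP11-390F4.3-OE, and ITGB8 from 38.3% to 23.3% and 20.4%.

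Hemidesmosome proteins and the laminin-332 they bind were read as a list of 7 genes outside the members. Counts of this list and those below stand beside the share of all genes called with all libraries. That share was 19.4% in FADU hypoxia, 27.8% with METTL4-si in FADU, 36.2% in BFTC909 hypoxia and 24.9% with METTL4-si in BFTC909. It was 18.5% with METTL4-OE and 29.0% with RP11-390F4.3-OE. No list was tested against that share, which does not apply to counts without the marker-bearing libraries. In FADU hypoxia 2 were higher and 1 lower, with the transmembrane collagen COL17A1 among the former (log2 fold change 0.62), while the tetraspanin CD151 fell by 0.44. With METTL4-si in FADU 1 was higher (CD151, 0.65) and 2 were lower, among them COL17A1 (-0.45, and under 1.3-fold at -0.31 without the marker-bearing libraries). With METTL4-OE 5 of 7 were higher and with RP11-390F4.3-OE 4 of 7, with list medians of 0.63 in both, beside medians near 0.01 over all genes. In BFTC909 COL17A1 fell in hypoxia (-1.62), where 3 of 7 were higher and 1 lower, and the laminin chain gene LAMA3 rose with METTL4-si (1.79), where 3 were higher and none lower, and 2 and 1 without the marker-bearing libraries.

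Of 20 genes for other integrin ligands, 2 of 16 tested were higher and 4 lower in FADU hypoxia (3 and 4 without the marker-bearing libraries), with TGFBI at 0.93 and tenascin TNC at -0.98. In the libraries labelled METTL4-si 6 were higher and 1 lower, and 4 and 1 without those libraries, with LTBP1, which tethers latent TGF-beta, at 1.299 (0.96 without them) and TNC at 1.25. In BFTC909 hypoxia 11 of 19 were higher and 4 lower (12 and 5 without them, median 0.55 in both), led by the collagens COL3A1 (3.53) and COL1A2 (2.12) and with thrombospondin THBS1 at -3.05. With METTL4-si in BFTC909 6 were higher and 5 lower (6 and 6 without them), led by the laminin chain LAMA5 (3.40) and nephronectin NPNT (2.14), which were at 2.31 and 1.78 without the marker-bearing libraries. With METTL4-OE 8 of 15 were higher and 4 lower and with RP11-390F4.3-OE 5 were higher and 1 lower, led by the matricellular gene CCN2 (0.96 and 1.64).

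Of the 32 genes of the adhesion plaque, which link integrin tails to actin and to signalling kinases, most were not called in any 1 comparison. In FADU hypoxia 3 were higher and 5 lower (4 and 5 without the marker-bearing libraries), with the LIM protein gene TGFB1I1 at 0.87. With METTL4-si in FADU 1 was higher and 10 were lower (2 and 13 without them, the median going from -0.19 to -0.27), among them TGFB1I1 (-0.82), kindlin FERMT1 (-0.75) and integrin-linked kinase ILK (-0.74). In BFTC909 3 of 31 were higher and 7 lower in hypoxia (4 and 7 without them), with the kinase SRC at -1.28, and 2 were higher and 3 lower with METTL4-si (2 and 7 without them), with tensin TNS1 at -1.36 and SRC at 0.67. With METTL4-OE and RP11-390F4.3-OE alike 8 of 31 were higher and 3 lower, the scaffold gene NEDD9 being lower in the first (-0.70) and higher in the second (1.13).

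Of 15 genes for integrin trafficking through endosomes, 1 was called in FADU hypoxia, and 4 were lower in the libraries labelled METTL4-si (9 without the marker-bearing libraries), among them NUMB (-0.51) and RAB25 (-0.49). In BFTC909 hypoxia 1 of 13 was higher and 4 were lower, with EHD1 at -1.39, and with METTL4-si 1 was higher, the endocytic adaptor DAB2 (0.53), and none lower (1 and 1 without them). With METTL4-OE 1 of 14 was higher and 1 lower, and with RP11-390F4.3-OE 6 were higher and none lower (5 and none without them), led by DAB2 (1.22).

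Of the 16 integrin genes outside the members, 8 were tested in each knockdown table and 7 in the overexpression table. BFTC909 differed here by ITGB3, the beta chain of the ITGAV vitronectin receptor best known from endothelium and platelets. ITGB3 had 99.7 and 96.3 in normoxia, 87.8 and 89.9 in hypoxia and 45.8 and 41.1 with METTL4-si, and fell by 1.02 ± 0.08 with METTL4-si (limma adjusted p = 0.000147). Its values in the FADU overexpression table were 0.0465 to 0.942. The collagen receptor chain ITGA1 rose in BFTC909 hypoxia from 5.37 and 5.96 to 16.9 and 17.3 (log2 fold change 1.44), and ITGA4, which pairs with ITGB1, from 8.46 and 8.64 to 16.1 and 15.7 (0.83). ITGB2, a leukocyte chain, had 17.8 and 21.1 in hypoxic BFTC909 and 3.89 and 3.88 with METTL4-si (-2.06), and 13.7 and 13.0, then 7.86 and 7.79 in FADU (-0.70). ITGAX, another leukocyte chain, was low: it rose with METTL4-si from 2.17 and 2.72 to 8.30 and 9.01 in BFTC909 (1.49) and from 1.53 and 1.19 to 2.83 and 3.78 in FADU (0.86), fell with METTL4-OE (-0.63) and rose with RP11-390F4.3-OE (0.78). In FADU, ITGA1 rose with METTL4-si, METTL4-OE and RP11-390F4.3-OE (0.78, 0.40 and 0.64), ITGA2B, the platelet chain, rose in hypoxia from 1.37 and 1.52 to 2.65 and 2.92 (0.63), and the leukocyte chain ITGB7 fell with METTL4-OE and RP11-390F4.3-OE (-0.38 and -0.61). ITGA7, ITGA10 and ITGAE were not called in any comparison in which they were tested, with highest values of 1.36, 3.35 and 14.9.

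For each member with a mean value of at least 5 in both lines, the 2 genes whose pattern was most like it were taken from 9825 genes by Pearson's r over the 12 knockdown libraries, each gene centred in its table. They were KDM7A (0.977) and SH3GL3 (0.974) for ITGA5, C2CD2 (0.994) and ANKH (0.984) for ITGA6, DGKA (0.978) and LRRC1 (0.972) for ITGA3, and RECK (0.968) and NBPF12 (0.965) for ITGAV. For the beta chains they were BCAP31 (0.972) and KRCC1 (0.971) for ITGB5, CDON (0.972) and DNAH1 (0.970) for ITGB8, and ZNF605 (0.955) and SLC35A3 (0.955) for ITGB1. The 12 libraries fall into 6 groups of 2 and share the treatments, so these values describe likeness in these libraries alone.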

How the data were processed

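RNA was sequenced by the study as paired reads from stranded, rRNA-depleted libraries. The deposited values are TMM-normalized signal (CPM after edgeR's scaling), which the authors made with Trim Galore, HISAT2 on hg19 and HTSeq (versions not given in the sources used here). The authors' own comparison tables, with log2 fold changes, log2 expression, F scores and p-values, were not used. Low values were whole multiples of 1 read in 100.0% of cases, which gave the depths. In the mutant table the scaling included reads assigned to no gene (40.9% to 43.0%), and each gene had at least 10 reads in every library.

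Each table was fitted with limma 3.58.1 (R 4.3.3) on log2(value + 1), with trend, on genes at 1 or more in at least 2 libraries. Fold changes are on that scale, which understates changes of low genes. For each gene, all groups in a fit shared 1 estimate of the spread, although replicates were not equally close. The chi-square per degree of freedom between replicate reads was 28.9 in FADU METTL4-si, 9.34 in normoxia Scr-si and 2.73 in hypoxia Scr-si. In BFTC909 it was 23.9, 2.11 and 3.89 in the same order. Standard errors may thus be too small for comparisons with METTL4-si and too large for hypoxia against normoxia. P-values were two-sided and adjusted by Benjamini-Hochberg over all genes tested. An exact permutation test of 2 libraries against 2 cannot go below p = 0.33, so none was used. A call needed 1.3-fold and adjusted p under 0.05. The fits were tested on simulated data with the same dispersion in every gene and independent libraries. That test does not cover deviations shared between groups, such as the correlation of 0.65 between FADU normoxia Scr-si and METTL4-si. Alternatives were other pseudocounts and filters, median centring, edgeR 4.0.16 on the whole reads, a replicate block, unadjusted p, a fit to the compared groups alone, and leaving out libraries. RP11-390F4.3-OE libraries were identified by elimination, as the columns matching no other label, and RP11-390F4.3 by the gene 216 bases downstream of the study's primer. Text names all members, the targets, CA9, SLC2A1, the other integrins with a row, up to 3 called genes of each list with the largest changes, and the 2 genes most like each member. Some genes counted in the lists are not reported here by name. Floors and whole reads cover counting error only. The members and lists were chosen with earlier results of these data known.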

Additional observations from a re-analysis of the deposited data

Results flagged for a closer look

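For 9 pairs of a member and a comparison, the response differed between FADU and BFTC909 in the limma fit of the difference (BFTC909 minus FADU, log2 scale). In hypoxia these were ITGB8 (2.51, adjusted p = 6.9e-05), ITGB5 (1.27, adjusted p = 0.0037), ITGA6 (-1.16, adjusted p = 0.0013) and ITGA5 (-1.07, adjusted p = 0.000292). With METTL4-si they were ITGB8 (-1.77, adjusted p = 0.000529), ITGA5 (1.19, adjusted p = 0.000167), ITGB6 (-0.79, adjusted p = 0.0074), ITGA6 (0.62, adjusted p = 0.027) and ITGA3 (0.61, adjusted p = 0.0012). ITGA5, ITGA6 and ITGB8 had differences of opposite sign in the 2 comparisons, but these comparisons share the hypoxic Scr-si libraries of each line. The METTL4-si differences also rest on FADU libraries in which METTL4 RNA was not lower than with Scr-si.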

How the results depend on the processing

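Of the 36 calls of members in the 8 tested comparisons, 27 held under every alternative and none changed direction. Leaving out 1 library gave 1 to 2 called members in FADU hypoxia and 2 to 6 in the FADU libraries labelled METTL4-si. Centring each library on its median ended the call of ITGA2 in FADU hypoxia (limma adjusted p = 0.056), of ITGA3 (0.35) and ITGA6 (0.33) with RP11-390F4.3-OE and of the ITGA6 METTL4-si difference, and moved the percent of called genes that were higher from 49.6 to 60.4 in BFTC909 hypoxia, 53.1 to 37.2 with METTL4-si there, 56.9 to 41.2 with RP11-390F4.3-OE and 61.2 to 50.6 in the METTL4-si difference. It added calls of ITGB1 in BFTC909 hypoxia (0.44), ITGB6 with METTL4-si there (-0.41) and ITGB5 in the METTL4-si difference (-0.68, and -0.73 with edgeR). Uncalled members near 0 changed sign. ITGB5 in FADU hypoxia was 0.035 centred, 0.016 with edgeR, 0.047 without the marker-bearing library and -0.074 to 0.047 without 1 library. ITGB6 there was 0.0010 centred. ITGB1 with METTL4-si in FADU was -0.016 centred and -0.060 to 0.12 without 1 library, ITGA3 in BFTC909 hypoxia -0.028 to 0.038, and the ITGAV METTL4-si difference -0.044 centred, -0.025 with edgeR and -0.14 to 0.18 without 1 library. The cause was not tested.

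Numbers of all called genes, without 1 library, were 752 to 1065 of 3163 in FADU hypoxia, 2035 to 5729 of 4534 with FADU METTL4-si, 3447 to 3811 of 5382 in BFTC909 hypoxia, 1855 to 5166 of 3704 with BFTC909 METTL4-si, 2016 to 2402 of 3235 for the hypoxia difference and 1990 to 3672 of 3193 for the METTL4-si difference. edgeR on the whole reads called 3198, 4646, 5497 and 3783 genes in the 4 siRNA and hypoxia comparisons in that order, 3029 with METTL4-OE and 4801 with RP11-390F4.3-OE. A pseudocount of 5 took METTL4-OE from 2894 to 1621 and RP11-390F4.3-OE from 4539 to 2607, and a minimum mean value of 5 took them to 1922 and 2964. With the longest transcript as length, the alpha share was 51.2% in normoxic FADU and 49.2% in BFTC909, and the ratio of ITGB5, ITGB6 and ITGB8 to ITGAV was 1.301 and 0.463, against 2.45 and 0.870 with merged exons.

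Replicate numbers did not pair the libraries in most pairs of groups: deviations of same-numbered libraries correlated across genes at -0.065 to 0.65, above 0.1 in 2 of 9 pairs. The value of 0.65 was between FADU normoxia Scr-si and FADU METTL4-si, whose replicate 1 libraries both held luminal breast markers. The other was 0.15, between BFTC909 hypoxia Scr-si and METTL4-si. With a replicate block the METTL4-si difference of ITGB5 was called (-0.62, limma adjusted p = 0.039), giving 6 members against 5, and no other call changed.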
